A study of Mus musculus with 4 samples.

Results

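The loci described here are 41 imprinted genes and the CCGG sites in and around them in mouse left ventricle. The genes were given by name: the span of each on mm10 was extended by 5 kb on either side, overlapping spans were merged, and every CCGG site listed in all 4 samples was taken. This gave 31 windows with 1764 of the 996020 sites shared by the 4 samples, of which 1632 had a mean MspI signal of at least 10 and were used. The number of used sites per gene ran from 3 at Ndn to 314.

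Imprinted genes are expressed mainly from the maternal or the paternal copy. The choice is carried by differentially methylated regions (DMRs), CpG-rich stretches whose cytosines are methylated on one parental chromosome and unmethylated on the other. Germline DMRs receive their methylation in the egg or the sperm and keep it through the reprogramming that follows fertilisation, whereas secondary DMRs acquire it afterwards under the control of a germline DMR. Because the mark differs between chromosomes and not between cells, most tissues, heart included, hold it at an intermediate level, which is why these regions serve as internal standards for methylation assays. Loss of this pattern underlies imprinting disorders, and several of the genes act in growth and in heart development.

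DNA came from C57BL/6 mice aged 8 weeks that had undergone myocardial infarction, and all tissue was taken 3 days later. Wild-type mice gave a non-infarcted and an infarcted sample of left ventricle, and Neil3-null mice gave the same pair; values are listed in that order throughout. Neil3 encodes a DNA glycosylase that removes damaged bases. There was 1 sample per group, so differences between groups are given as values without a test. The labels do not say whether animals were pooled or whether infarcted and non-infarcted tissue came from the same hearts, and the non-infarcted samples are not from unoperated animals. HMST-seq cuts CCGG sites in 3 libraries per sample. HpaII cuts only the unmodified site, MspI cuts regardless of methylation at the inner cytosine, and MspI after glucosylation ("C+mC" library) spares 5-hydroxymethylcytosine (5hmC). The deposited signal summed to between 33116233 and 43118876 per library over the shared sites, and the tag counts behind it are not known.

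The unmodified index, HpaII as a percent of MspI, could not be read as a fraction of unmodified DNA. At 19406 sites within 500 bp of CpG-rich starts outside imprinted loci (starts whose 300-base promoter holds at least 15 CpG, nearly all unmethylated in most tissues), the median index in wild-type non-infarcted tissue was 717% where MspI was 10 to 20 and 93.2% where it was 160 or more. The HpaII signal itself had a median of 100.02 at the weakest and 178 at the strongest of these MspI levels. A second measure was therefore used, the matched unmodified level. It is the summed HpaII signal of a region as a percent of the HpaII signal expected in the same sample. The expected signal comes from CpG-rich sites of like mean MspI signal over the 4 samples. A difference in MspI signal between samples is therefore not corrected for. A level near 100% is that of a typical CpG-rich start. Over 5725 CpG-rich start regions its median was 97.5%, 97.9%, 98.0% and 98.1% in the 4 samples, and the 5th and 95th percentiles in wild-type non-infarcted tissue were 72.0% and 117%. A region is called intermediate here at 25% to 75%. This measure was chosen after the index had been seen to depend on MspI.

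A start region is every used site within 1 kb of an annotated start, with at least 3 sites. Of the 41 genes, 26 had at least 1 measured start and 15 had none. Including 2 imprinted retrogenes that lie inside the windows, Zrsr1 in an intron of Commd1 and Mcts2 in an intron of H13, 29 start regions with different sets of sites were measured. From textbook knowledge 10 of them are germline DMRs, 6 are taken here as secondary DMRs, and 1 (Commd1 start 2) shares 4 of its 6 sites with Zrsr1 and is not independent of it. The class of Slc38a4, taken as secondary, is the least certain. The other 12 are neighbouring or alternative starts. Starts of a gene are numbered in the direction of transcription.

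The sequences of 4 germline DMR starts and of an unmethylated neighbour show where the assay reads. Each is the RefSeq promoter on GRCm38.p6, from 250 bases before to 50 bases after the start, written 5′ to 3′ on the strand of the gene with CCGG in capitals. Plagl1 (chr10:13090582-13090881, plus strand) encodes a zinc finger regulator of growth. Mest start 2 (chr6:30737800-30738099, plus strand) is the start of the main transcript of a hydrolase-like protein expressed from the paternal copy. Snrpn start 4 (chr7:60005150-60005449, minus strand) lies in the imprinting centre of the Prader-Willi/Angelman cluster. Mcts2 (chr2:152686898-152687197, plus strand) is the retrogene in H13, and H13 (chr2:152669211-152669510, plus strand) is its host gene, which encodes signal peptide peptidase.
Plagl1: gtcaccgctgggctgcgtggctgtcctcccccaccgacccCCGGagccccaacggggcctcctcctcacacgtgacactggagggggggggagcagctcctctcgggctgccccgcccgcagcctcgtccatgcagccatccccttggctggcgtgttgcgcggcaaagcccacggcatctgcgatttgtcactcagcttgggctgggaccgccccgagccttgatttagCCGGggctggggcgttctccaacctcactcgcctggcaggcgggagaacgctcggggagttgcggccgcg
Mest start 2: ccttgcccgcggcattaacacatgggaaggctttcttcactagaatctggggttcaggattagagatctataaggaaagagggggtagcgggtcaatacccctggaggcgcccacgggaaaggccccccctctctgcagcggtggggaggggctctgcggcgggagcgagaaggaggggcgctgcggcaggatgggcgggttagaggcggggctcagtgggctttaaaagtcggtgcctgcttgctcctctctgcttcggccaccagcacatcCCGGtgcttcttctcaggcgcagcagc
Snrpn start 4: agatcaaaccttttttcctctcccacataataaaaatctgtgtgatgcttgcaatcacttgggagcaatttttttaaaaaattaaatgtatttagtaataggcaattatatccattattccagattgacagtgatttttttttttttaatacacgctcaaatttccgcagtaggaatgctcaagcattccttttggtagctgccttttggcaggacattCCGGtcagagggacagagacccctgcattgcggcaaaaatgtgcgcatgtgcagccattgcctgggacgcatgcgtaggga
Mcts2: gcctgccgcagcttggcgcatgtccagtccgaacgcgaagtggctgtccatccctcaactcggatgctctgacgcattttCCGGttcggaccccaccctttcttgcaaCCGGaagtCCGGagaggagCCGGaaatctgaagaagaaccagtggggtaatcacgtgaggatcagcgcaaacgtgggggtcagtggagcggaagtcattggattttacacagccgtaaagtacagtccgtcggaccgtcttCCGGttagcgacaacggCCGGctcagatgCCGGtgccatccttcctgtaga
H13: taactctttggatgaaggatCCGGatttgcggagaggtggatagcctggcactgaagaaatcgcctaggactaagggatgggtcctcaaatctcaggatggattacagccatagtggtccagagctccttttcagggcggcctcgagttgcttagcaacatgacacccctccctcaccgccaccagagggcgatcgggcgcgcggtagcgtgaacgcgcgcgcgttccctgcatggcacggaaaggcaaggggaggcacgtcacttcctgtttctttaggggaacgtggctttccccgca

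The Plagl1 promoter holds 26 CpG and 2 CCGG sites, both of them measured, and the Mest promoter holds 17 CpG and 1 CCGG site. The Mcts2 promoter holds 7 CCGG sites, of which 2 are in the files, and its host H13 has 21 CpG and 1 CCGG site, so the pair have promoters of similar CpG content. Snrpn has 7 CpG and 1 CCGG site. ZFP57, a zinc finger protein that protects imprints after fertilisation, is known to bind methylated TGCCGC. This hexamer was present on either strand in 5 of the 8 germline DMR promoters in the sequence table (Plagl1, Mest, Nnat, Mcts2 and Snrpn) and absent from those of Peg3, Zrsr1 and Gnas start 2. It was found in 11.6% of 31365 autosomal promoters and in 24.95% of the 11033 with at least 15 CpG. A match is a description of the letters in this window and not of binding.

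All 10 germline DMR starts lay below the 5th percentile of CpG-rich starts or close to it, and none lay near the fully unmodified level. Of the 10, 9 were intermediate in all 4 samples, against 3.42% of CpG-rich starts, 29.6% of starts with 5 to 14 CpG and 17.4% of all 9941 start regions. Their levels ran from 43.6% to 75.4%, and their medians were 61.4%, 57.8%, 59.1% and 65.1% in the 4 samples. By CpG content, 4 of the 5 with at least 15 CpG and 3 of the 3 with 5 to 14 CpG were intermediate in all 4 samples, and the remaining 2 have no sequence in the promoter table.

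**Figure D1:**
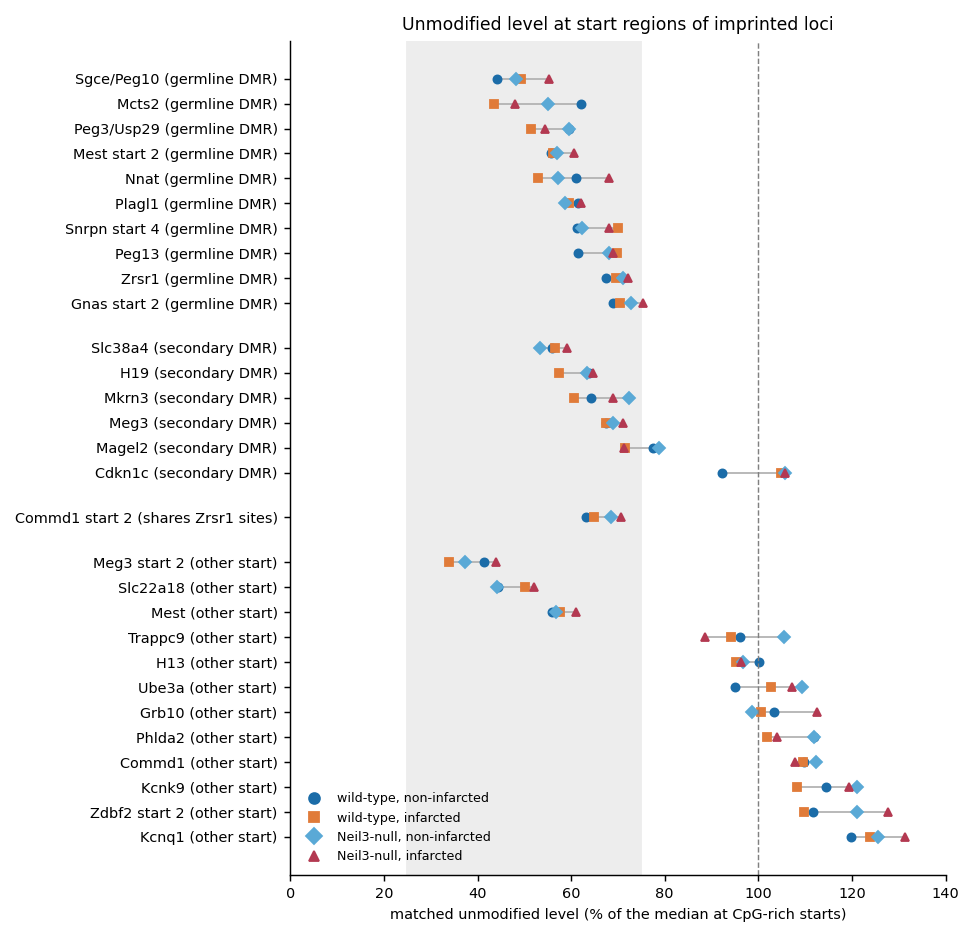
Matched unmodified level (x axis, percent of the level expected at CpG-rich starts) of the 29 measured start regions of imprinted loci (y axis), with 1 symbol per sample; the grey band marks 25% to 75% and the dashed line 100%. The 10 germline DMRs sit between 43.6% and 75.4%, while 9 neighbouring starts sit between 88.5% and 131%.

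Plagl1 had matched levels of 61.4%, 59.5%, 58.7% and 62.1%. These 4 values spanned the narrowest range of any germline DMR, with an SD over samples of 1.60 points. Its site 147 bp after the start (chr10:13090979) gave HpaII signals of 91.2, 83.1, 83.9 and 83.5 against MspI signals of 124, 127, 140 and 111, a matched level of 59.6% to 64.3%. Read on the index alone, Plagl1 stood at 114%, 103%, 116% and 113%, where CpG-rich starts had a median of 212% in wild-type non-infarcted tissue.

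Mest start 2 had levels of 55.7%, 56.0%, 57.0% and 60.6%, and no sample stood apart. Zrsr1, a retrogene for a splicing factor subunit expressed from the paternal copy, had 67.4%, 69.5%, 71.0% and 72.2%. Gnas start 2, which is the exon 1A DMR controlling tissue-specific imprinting of the G protein subunit Gs alpha, had 68.9%, 70.4%, 72.7% and 75.4%. The last value is just outside the band and makes Gnas the germline DMR not counted as intermediate in every sample. The value just inside was 72.7% at Gnas itself and 72.2% at Zrsr1.

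Peg3 and Usp29, which share a start region and encode a zinc finger protein and a ubiquitin-specific protease on opposite strands, had levels of 59.5%, 51.4%, 59.5% and 54.5%. The shared Sgce and Peg10 start, between the gene for epsilon-sarcoglycan and a retrotransposon-derived gene needed in placenta, had 44.3%, 49.3%, 48.1% and 55.3%. In this pair of regions the order of the samples was not the same: the infarcted samples were lower at Peg3 and higher at Peg10. Nnat, a proteolipid gene whose DMR lies in an intron of Blcap, had 61.1%, 53.0%, 57.2% and 68.2%. Snrpn start 4 had 61.3%, 69.96%, 62.3% and 68.1%. Peg13, a non-coding RNA in an intron of Trappc9, had 61.5%, 69.7%, 68.1% and 68.9%.

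Mcts2 showed the widest spread of the germline DMRs, with 62.1%, 43.6%, 55.1% and 48.0% and an SD of 8.13 points. Its host H13, which starts upstream on the same strand, had 100.1%, 95.3%, 96.7% and 96.2%. The levels of the retrogene and the host did not overlap in any sample.

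**Figure D2:**
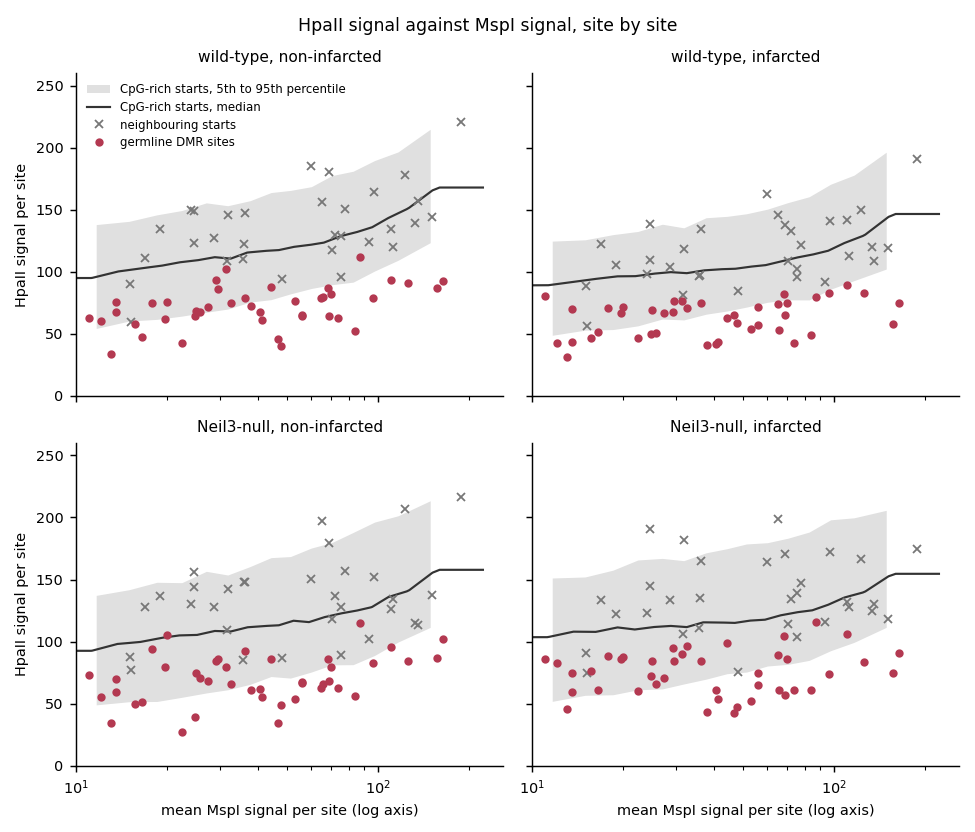
HpaII signal per site (y axis) against the mean MspI signal of the site over the 4 samples (x axis, log scale), with 1 panel per sample; the line and grey band give the median and the 5th to 95th percentiles of sites at CpG-rich starts, red points the 42 germline DMR sites and crosses the sites of 9 neighbouring starts. Germline DMR sites lie below the line across the range of MspI, apart from single sites that reach it, and the crosses scatter around it.

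The level of the germline DMRs was also fairly even from site to site. Averaged over the 4 samples, 34 of the 42 germline DMR sites (81.0%) were intermediate, 8 were above 75% and 0 were below 25%. The median SD between sites of a region was 10.1 points. The secondary DMR starts were less even: 17 of their 30 sites (56.7%) were intermediate, 13 were above 75%, and the median SD was 16.8 points. The 196 CpG-rich starts of the whole genome that were intermediate in all 4 samples had only 47.7% of their 780 sites in the band, with 132 sites below 25% and 276 above 75%, and a median SD between sites of 32.4 points. In the 636 intermediate starts with fewer than 5 CpG, 63.5% of sites were in the band and the median SD was 22.7 points. Both genome-wide sets were picked for an intermediate sum, and the DMR classes were assigned with some levels already known. For both reasons these shares are a description. Some imprinted sites did depart from the region: the Nnat site 195 bp after its start had 84.5%, 69.9%, 91.4% and 92.1%, and the Plagl1 site at chr10:13090046, upstream of its start, had 34.4%, 34.7%, 35.5% and 42.5%.

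**Figure D3:**
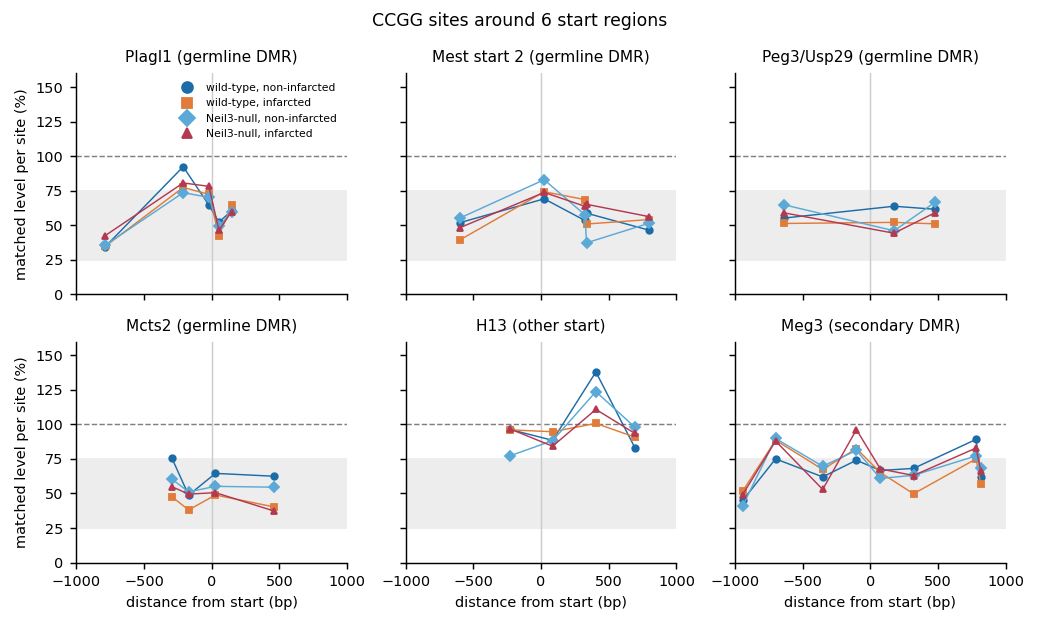
Matched unmodified level of each CCGG site (y axis, percent) by its distance from the start (x axis, bp, positive downstream) for 6 start regions, with 1 line per sample; the grey band marks 25% to 75% and the dashed line 100%. Sites of Plagl1, Mest start 2, Peg3/Usp29 and Mcts2 lie mostly within the band, H13 sites lie between 77.2% and 138%, and the 8 Meg3 sites lie in or above the band.

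Of the 6 secondary DMR starts, 4 were intermediate in all 4 samples. The share was 3.42% among CpG-rich starts, 29.6% among starts with 5 to 14 CpG and 17.4% among all start regions. Meg3, a maternally expressed non-coding RNA of the Dlk1-Dio3 cluster with 8 sites, had 67.5%, 67.5%, 69.0% and 71.1%. The H19 start, of the maternally expressed non-coding RNA next to Igf2, had 63.9%, 57.3%, 63.4% and 64.7%. Slc38a4, an amino acid transporter gene, had 55.8%, 56.6%, 53.4% and 59.0%, and Mkrn3, a ring finger gene of the Prader-Willi cluster, had 64.3%, 60.5%, 72.3% and 68.8%. Magel2, a MAGE family gene of the same cluster, lay at the edge of the band with 77.4%, 71.5%, 78.7% and 71.3%. Its 2 infarcted samples were inside and its 2 non-infarcted samples outside. At Mkrn3 the levels of single sites, averaged over the 4 samples, ran from 25.4% to 112%, so its summed level mixes low and high sites.

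Cdkn1c, the maternally expressed cell cycle inhibitor p57, was the exception among the secondary DMRs. Its start had 92.2%, 104.8%, 105.8% and 105.7%, the level of a CpG-rich start. A run of 3 sites upstream of it (chr7:143461736-143462217) had 60.1%, 65.0%, 61.9% and 73.9%; its first site also belongs to the start region. The other 3 Cdkn1c runs were not intermediate, at 96.4% to 116%, 89.4% to 101% and 85.1% to 95.2%.

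**Figure D4:**
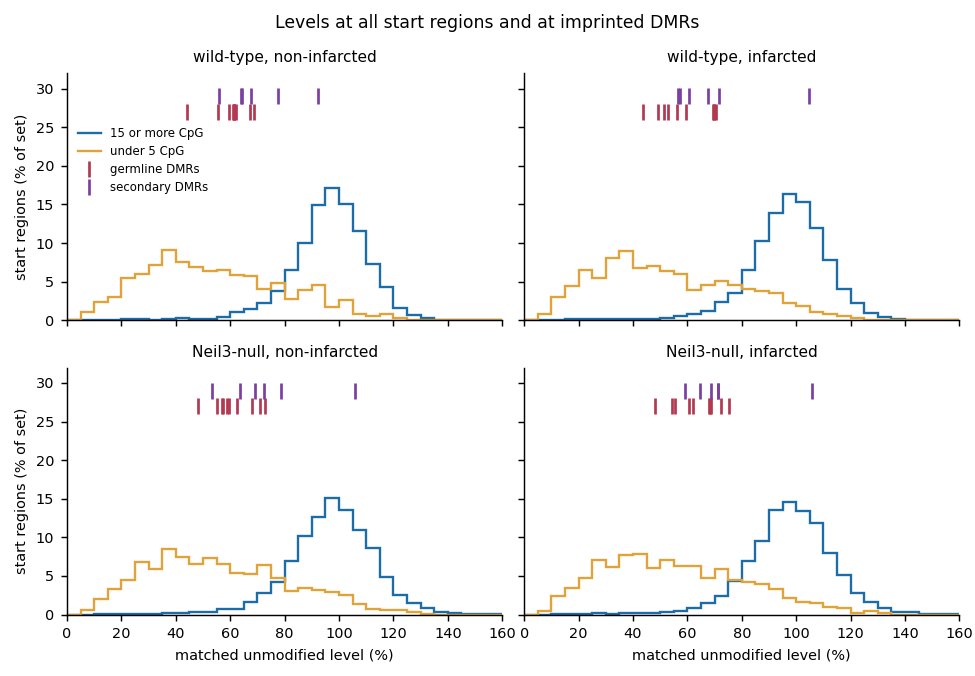
Share of start regions (y axis, percent of each set) by matched unmodified level (x axis, percent, in steps of 5 points), with 1 panel per sample, for 5725 starts with 15 or more CpG and 1171 starts with under 5 CpG; ticks mark the 10 germline and 6 secondary DMR starts. The DMR ticks fall between the peak of CpG-rich starts near 98% and the peak of CpG-poor starts, apart from Cdkn1c at 92.2% to 105.8%.

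Of the 12 neighbouring or alternative starts, 9 had levels within or above the range of ordinary CpG-rich promoters and 3 were intermediate. The 9 neighbouring starts with a CpG-rich promoter or no promoter in the table, Trappc9, H13, Ube3a, Grb10, Phlda2, Commd1, Kcnk9, Zdbf2 start 2 and Kcnq1, had levels from 88.5% to 131%. Of these, 0 of the 9 were intermediate in any sample. Only 3.42% of all CpG-rich starts were intermediate in all 4 samples, so a count of 0 among 9 is near that background. Kcnq1 lay above the 95th percentile of CpG-rich starts in every sample, with 119.8%, 123.9%, 125.6% and 131.4% against 117%, 118%, 121% and 122%. Ube3a, the ubiquitin ligase gene of Angelman syndrome that is imprinted in neurons through an antisense RNA, had 94.9%, 102.8%, 109.2% and 107.3%. Commd1 had 109.8%, 109.6%, 112.4% and 107.8% at its own start, while its start 2, which overlaps Zrsr1, had 63.1%, 64.9%, 68.4% and 70.7%. The other 3 starts had under 15 CpG in the promoter and were intermediate in all 4 samples: Meg3 start 2 at 33.9% to 43.9%, Slc22a18 at 44.2% to 52.0% and the upstream Mest start at 55.9% to 61.1%. Meg3 start 2 and Slc22a18 have 1 and 2 CpG, and 54.3% of all starts with fewer than 5 CpG were intermediate in all 4 samples, so such levels are common for promoters of that kind. The upstream Mest start has 8 CpG, and 29.6% of starts with 5 to 14 CpG were intermediate in all 4 samples.

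Several well-known control regions had only 1 or 2 used sites and are given as single readings. The Kcnq1ot1 start, the germline DMR of the Beckwith-Wiedemann cluster, had 1 site with 52.1%, 45.6%, 44.8% and 54.4%. Airn, the antisense RNA that silences Igf2r, had 60.2%, 55.6%, 59.2% and 57.9% over 2 sites. The H19 imprinting control region, taken as 2 to 4 kb upstream of H19, had 44.2%, 49.1%, 37.8% and 50.4% over 2 sites. The Igf2r start, for the receptor that clears IGF2, had 61.2%, 67.7%, 60.7% and 68.5% at 1 site. All of these readings are within the intermediate band. Outside it lay Dlk1 (127% to 144% over 2 sites), Rasgrf1 (97.0% to 117% over 2 sites), Dio3 (85.5% to 102% over 2 sites) and Ndn (93.4% to 107% at 1 site), and Zdbf2 start 1 was highly modified at 10.5% to 16.8% over 2 sites. Impact had 1 site at its start with 57.2%, 85.4%, 45.1% and 62.9%, the widest range of these readings. The starts of the remaining genes without a measured region (Igf2, Zim1, Copg2, Ddc, Rtl1, Blcap and Inpp5f) ranged from 12.1% at the first Igf2 start to 151% at Blcap.

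Intermediate levels were also sought away from starts, by chaining used sites at gaps of at most 400 bp into runs of at least 3 sites. The 31 windows held 82 runs, of which 40 (48.8%) were intermediate in all 4 samples, against 40.1% of 33450 runs on the autosomes. The share in imprinted windows was close to that background, so being intermediate did not by itself mark a run as imprinted. Some runs in genes where a DMR is known are given as a description. They were named after their values were seen, so their levels are not support for a DMR at those places. The intronic Grb10 run downstream of its second start (chr11:12025585-12026184, 4 sites), in the gene for a growth factor receptor adaptor, had 59.3%, 59.9%, 60.0% and 60.0%, while the second start itself had 25.8%, 19.7%, 23.2% and 17.2% over 2 sites. The Impact run of 4 sites, inside the gene and therefore away from its annotated start, had 65.8%, 63.9%, 69.4% and 62.4%. Of the 6 Gnas runs, those at chr2:174297977-174298472 and chr2:174300050-174300978, upstream of exon 1A in the part of the locus with the Nespas and XL alpha s promoters, had 63.0% to 69.3% and 60.0% to 66.7%. The run beside them (chr2:174296228-174296642) had 68.0%, 79.1%, 78.3% and 75.5%, outside the band in 3 samples, and the other 3 had 46.9% to 62.4%, 18.9% to 22.8% and 94.9% to 103%. A run between the Zdbf2 starts (chr1:63266052-63266509, 3 sites) had 64.7%, 69.5%, 70.1% and 71.5%. In the same windows 15 runs were below 25% and 12 above 75% in all 4 samples. Among the former were 2 runs of 5 sites inside the annotated span of Rtl1 at 15.2% to 20.9% and 15.3% to 19.4%, and a run of 6 sites at Zim1 at 12.0% to 21.6%.

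Over whole windows imprinted loci did not stand out. The 29 windows with at least 10 used sites had median matched levels of 44.3%, 41.7%, 45.4% and 45.2%. The same windows drawn around 15135 protein-coding genes had medians of 43.8%, 42.5%, 45.1% and 44.5%. All of these medians lie within the band called intermediate here. Such a level over a whole window was therefore usual, and it was not particular to imprinted loci or to their DMRs. The medians of the imprinted windows were close to those of other genes in each sample, with no clear raised or lowered level of the clusters.

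Infarction and loss of Neil3 were then compared at the 29 start regions. In none of the 4 comparisons did a start region of an imprinted locus differ by 20 points or more: 0 of 29 between infarcted and non-infarcted wild-type tissue, where 1.23% of all 9941 starts did, 0 of 29 between the Neil3-null samples (0.875%), 0 of 29 between genotypes in non-infarcted tissue (1.07%) and 0 of 29 between genotypes in infarcted tissue (1.21%). With backgrounds this low a count of 0 among 29 regions is near what the background gives. Differences of 10 points or more numbered 2, 3, 2 and 4 of 29, against 17.6%, 14.4%, 13.8% and 18.2% of all starts. The SD of the difference over all starts was 7.60, 7.04, 7.04 and 7.49 points, and it is the only yardstick for error here.

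In the wild-type comparison the germline DMRs had a median difference of 0.94 points (infarcted minus non-infarcted), with 6 higher and 4 lower; over all 9941 starts the median was -0.31 points and 48.4% were higher. Mcts2 had the most negative value of all 29 regions at -18.5 points, and Cdkn1c the most positive at 12.6 points. Mcts2 was lower in infarcted tissue in both genotypes (-7.04 points in the Neil3-null samples), and 4 of its 4 sites were lower in infarcted than in non-infarcted wild-type tissue. These sites make up the summed value for which Mcts2 is named, so they are not separate evidence for it. In the Neil3-null samples the median of the germline DMRs was 3.02 points, with 8 higher and 2 lower, against a median of 0.27 points and 51.8% higher over all starts. The extremes were Trappc9 at -17.0 points and Grb10 at 13.8 points, both neighbouring starts. Nnat differed by -8.14 points in wild-type tissue and by 10.9 points in Neil3-null tissue; this difference between genotypes was not tested.

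**Figure D5:**
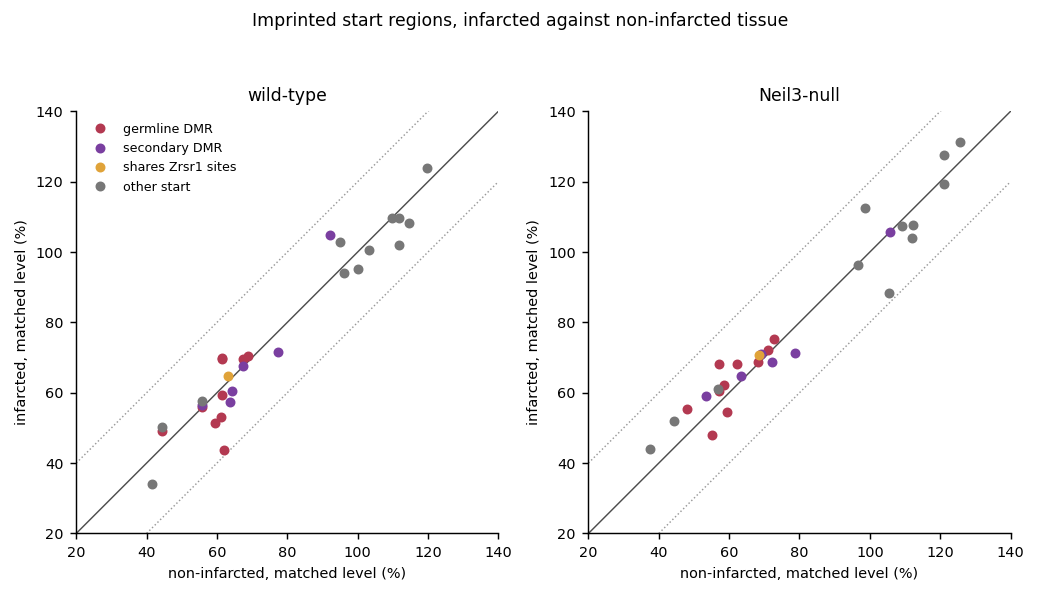
Matched unmodified level in infarcted (y axis, percent) against non-infarcted tissue (x axis, percent) for the 29 start regions, wild-type at left and Neil3-null at right; the solid line marks equality and the dotted lines 20 points either side. All points lie within the dotted lines, Mcts2 being nearest to one of them at -18.5 points in wild-type tissue.

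Between genotypes, the germline DMRs had a median difference (Neil3-null minus wild-type) of 1.17 points in non-infarcted tissue, 6 higher and 4 lower, against 1.02 points and 56.3% higher over all starts. It was 3.75 points in infarcted tissue, 8 higher and 2 lower, against 1.36 points and 57.8% higher over all starts. The extremes were Mcts2 at -7.06 and Ube3a at 14.3 points in non-infarcted tissue, and Trappc9 at -5.61 and Zdbf2 start 2 at 17.9 points in infarcted tissue. The comparisons share samples in pairs, so the values are given side by side and not as independent results.

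Infarcted tissue is known to hold fewer cardiomyocytes and more leukocytes, and a change in the mix of cells cannot be told apart from a change within them. The matched level over bodies of cardiomyocyte marker genes was lower in infarcted than in non-infarcted tissue for 18 of 18 genes in wild-type and 16 of 18 in Neil3-null samples, with medians of -7.29 and -3.98 points. Bodies of leukocyte markers were lower for 6 of 18 genes in each, with medians of 0.91 and 1.59 points. Over 12900 protein-coding genes the medians were -1.65 and -0.87 points. Bodies of the imprinted genes had medians of -2.09 and -0.43 points and were lower for 30 of 33 (90.9%) in wild-type and 20 of 33 (60.6%) in Neil3-null samples, where 72% and 65.2% of all protein-coding genes were. The part of cell composition in these differences was not tested.

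By the planned rule on the index, dense clusters of at least 5 sites at gaps of at most 200 bp were scaled to the clusters at housekeeping genes. Only 2 clusters fell in imprinted windows, and the housekeeping scale itself rested on 2 clusters. The Magel2 cluster (chr7:62377230-62377548) stood at 42.5%, 47.3%, 43.4% and 40.3% of the housekeeping index, and the Kcnq1 cluster (chr7:143340637-143341084) at 43.4%, 50.5%, 55.3% and 64.4%. Both were intermediate in wild-type non-infarcted tissue, as were 54.5% of all 514 dense clusters. Neither differed by 20 points in any comparison, where 5.64%, 2.53%, 2.33% and 3.7% of dense clusters did. On this scale the 10 germline DMR starts had medians of 52.3%, 49.0%, 48.0% and 54.4% with a range from 32.1% to 112%, and 7 of the 10 were intermediate in all 4 samples. The 3 that were not were Peg13, Zrsr1 and Gnas start 2, whose mean MspI signals of 42.3, 33.6 and 33.0 were among the 4 lowest of the 10. How many of all starts are intermediate on this scale was not counted, so the 7 of 10 has no background beside it.

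The 5hmC index is what the C+mC library lacks relative to MspI, as a percent of MspI, and it was mostly negative at these regions. Its median over the germline DMRs was -26.6%, -26.4%, -17.2% and -10.6%, and its range was -103% to 32.7%. CpG-rich starts had medians of -50.4%, -24.3%, -36.8% and -28.7%. A negative value is not a physical amount: it means that the C+mC library gave more signal than the MspI library. Matched to CpG-rich sites in the same way as HpaII, the C+mC signal of Snrpn start 4 stood at 51.5%, 63.6%, 66.7% and 71.5% and that of the Sgce and Peg10 start at 55.2%, 64.7%, 53.4% and 49.4%. These lay below or near the 5th percentile of CpG-rich starts, which was 65.4%, 67.5%, 66.5% and 66.7%. The other 8 germline DMRs ranged from 64.5% to 125%. The 64.5% was at Zrsr1 in Neil3-null non-infarcted tissue, also below the 5th percentile of CpG-rich starts, and its other values were 72.4%, 74.9% and 69.7%. Snrpn start 4 and Zrsr1 have only 7 and 10 CpG, however. Among starts with 5 to 14 CpG the 5th percentile was 44.4%, 55.5%, 53.1% and 54.5%, and both lay above it in every sample. The Sgce and Peg10 start has no CpG count.

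For comparison, starts of 50 further genes reported as imprinted in some tissue had median matched levels of 93.6%, 88.8%, 95.5% and 92.8%. Of their 28 regions 5 (17.9%) were intermediate in all 4 samples, close to the 17.4% of all start regions. Zrsr1 and Mcts2 are among these 5 and are already counted among the germline DMRs, so the list is not separate from them. Genes that maintain imprints had medians of 90.5%, 97.7%, 92.0% and 93.9%. Housekeeping genes had 96.2%, 98.7%, 93.4% and 91.0%. Genes expressed in germ cells, whose promoters are methylated in somatic tissue, had 37.2%, 34.0%, 39.8% and 39.04%, below the medians of the germline DMRs. Of their 18 start regions 11 (61.1%) were also intermediate in all 4 samples, against 1 of 29 housekeeping regions, so an intermediate call is common among methylated promoters too and is not particular to imprinted ones.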

How the data were processed

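HMST-seq was made from 4 samples, 1 per group, each with HpaII, C+mC and MspI libraries, per the labels' protocols. Each deposited table lists a normalized signal by site and library, computed by the authors; their aligner, filters and normalization: not given in the sources used here. The genome build was mm10 (per the submitters' processing notes). A deposited position is the base before the CCGG: 36.1% of 39736 promoter CCGG were listed at that offset. No tag counts are held, so depth is unknown and no counting interval is given.

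Autosomal sites present in all 4 samples with a mean MspI signal of at least 10 were used (876803). The expected HpaII signal was the median of 19406 sites at CpG-rich starts in 20 MspI bins per sample, interpolated on the log2 scale of mean MspI, with imprinted windows left out. The matched level was chosen after the planned index had been seen to fall with MspI; the planned measure is reported beside it. Members and gene lists were chosen with earlier results of these data known, and the DMR classes were assigned after levels of some regions had been seen. Named regions are the members' DMR landmarks with at least 3 sites, the dense clusters and the extremes of each comparison; runs away from starts were named after their values were seen. Promoters and gene spans are from RefSeq on GRCm38.p6; 31 of the 41 members matched the promoter table, and starts of the others came from the gene table. With 1 sample per group no statistical test was run; a fit of additive genotype and infarct effects, which would leave 1 residual degree of freedom, was not made. The functions were run on simulated HpaII signal made from the expected signal itself, which checks the code and not the choice of reference. Python 3.11.15, numpy 2.4.6, pandas 2.3.3 and matplotlib 3.10.9 were used. Alternatives varied the signal minimum, gaps, sites, windows, bands, anchor and reference.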

Additional observations from a re-analysis of the deposited data

Results flagged for a closer look

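The Nnat start region, a germline DMR of 4 sites, had an infarct difference of -8.14 points in wild-type and of 10.9 points in Neil3-null samples, each beyond the SD of that difference over all starts (7.60 and 7.04 points). It was the only one of the 29 regions with opposite signs of that size. How many of all starts meet the same rule was not counted, so this count has no background beside it. With 1 sample per group the difference between genotypes was not tested.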

How the results depend on the processing

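No paired analysis was possible because the labels give no replicate numbers or animals that pair samples. The median matched level of the germline DMRs (60.8% over the 4 samples) moved by less than the spread between samples under the 8 alternatives to its reference, signal minimum, start window and summing, and was 50.9% with the index scaled to housekeeping clusters. The count of germline DMRs intermediate in all 4 samples was within 1.5 times of 9 under every alternative run. The count of start regions past 20 points, 0 in each comparison, became 3, 2, 1 and 2 of 29 with the index scaled to housekeeping clusters (infarct in wild-type, infarct in Neil3-null, genotype in non-infarcted and genotype in infarcted tissue). It became 1 and 2 between genotypes in non-infarcted and infarcted tissue with the median of sites, and 1 for infarct in Neil3-null tissue with 1 expected HpaII signal for all sites. The count of 40 intermediate runs became 1 of 2 with gaps of at most 200 bp and at least 5 sites, and 6 of 12 with at least 5 sites. The median index relative to housekeeping over dense clusters and start regions, 60.4%, became 68.0% at a signal minimum of 5, 55.8% with gaps of 400 bp, 52.2% with at least 3 sites and 74.7% with the anchor from the dense clusters above the median index. The count of 2 intermediate dense clusters became 1 at a signal minimum of 20 or gaps of 100 bp, 7 with gaps of 400 bp, 12 with at least 3 sites and 0 with at least 8, where none were left. The count of dense clusters past 20 points, 0 in each comparison, became 1 for infarct in wild-type tissue with gaps of 400 bp, at least 3 sites or the median of site ratios, and 1 for infarct in Neil3-null tissue with at least 3 sites. Between genotypes it became 1 in non-infarcted tissue with the median of site ratios, a rule of 10 points or no anchor, and 1 in infarcted tissue at a signal minimum of 5, a rule of 10 points or no anchor, and 3 with at least 3 sites. The cause was not tested where more or fewer clusters do not account for it. The 5hmC index stayed negative under the 2 alternatives run (-24.6% and -38.2%). Tag counts being unknown, the precision of single sites cannot be stated, and regions of 3 to 8 sites carry most of the results.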
